A study of Homo sapiens with 4 samples.

Results

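Transfer RNAs are cut, trimmed, modified and exported by a set of enzymes, and 46 of their genes, chosen by symbol, were examined here among the 22494 features of a gene count table. The genes encode the tRNA-cutting ribonuclease angiogenin and its inhibitor, the nucleases that trim both ends of a precursor tRNA, the splicing endonuclease, methyltransferases, wobble uridine enzymes, pseudouridine synthases, deaminases and the carriers SSB and XPOT. All 46 symbols were found in the table, each once. Poly(A) RNA had been sequenced from RL-95-2 and HEC-1-A cells, established human endometrial cancer lines, given a mimic of tRF-20-S998LO9D or a negative control for the mimic. tRF-20-S998LO9D is a small RNA derived from a tRNA, and the study asked which genes differ where its mimic is present. The groups were RL-95-2 with mimic, RL-95-2 with control, HEC-1-A with mimic and HEC-1-A with control, and each was 1 library. No genotype, dose or time after transfection is given by the labels, and each line is a single established line. No label states that libraries came from separate cultures, so a p-value here measures only the spread between these 4 libraries.

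A newly made tRNA carries extra bases at both ends. RNase P removes the 5′ leader and RNase Z the 3′ trailer, and the TSEN complex takes out an intron where there is one. Modifying enzymes then act on many bases of the molecule, above all in and beside the anticodon, and methyl marks on cytosines are known to shield tRNAs from cutting. Angiogenin cuts mature tRNAs in the anticodon loop under stress, which yields a class of tRNA-derived fragments. Exportin-t, the product of XPOT, carries mature tRNAs out of the nucleus. These are the mRNAs of the enzymes only: tRNAs and their fragments were not measured.

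Library totals ranged from 33575882 to 46220053 counts, and 17016 to 17640 features had at least 1 count. The epithelial markers EPCAM, CDH1, KRT8, KRT18, KRT19 and KRT7 had counts in every library. Of 3 Mullerian markers, PAX8 had counts in every library and SOX17 in none. EMX2 had 36 and 32 counts in RL-95-2 with mimic and control and no count in HEC-1-A. Blood markers summed to at most 1.10 CPM, which is counts scaled to library size. Of 6 fibroblast markers, COL1A1 alone stood out, with 56.6 and 78.2 CPM in the RL-95-2 mimic and control libraries, against 6.39 and 2.96 CPM in the HEC-1-A mimic and control libraries. COL1A2 and DCN had no count in any library, and LUM, PDGFRB and COL3A1 had at most 2.43 CPM. Of 4 endothelial markers, CDH5 alone stood out, with 24.5 and 14.0 CPM in RL-95-2 with mimic and control and no count in HEC-1-A. PECAM1 and KDR had no count in RL-95-2, and VWF had 9 and 6 counts there with mimic and control. In bulk RNA, fewer cells holding a transcript and less of it per cell cannot be told apart.

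In RL-95-2, the mimic library differed from its control at least 2-fold for 4 of the 45 measured genes, and in HEC-1-A for none of 44. Over all measured genes, the share past that mark was 4.71% upward and 6.52% downward in RL-95-2, and 0.871% upward and 0.239% downward in HEC-1-A, so 4 of 45 is not above the share of all genes. XPOT was 2.41-fold lower with the mimic in RL-95-2. POP5 and POP1, both protein subunits of RNase P, were 2.73-fold and 2.60-fold higher there, and TRMT61A, the catalytic subunit of the enzyme that makes 1-methyladenosine in tRNA, was 2.05-fold higher. A gene counted as measured in a line with a mean of at least 1 CPM, which left out ANG in both lines and RPP25 in HEC-1-A. Ratios are log2 ratios of TMM-scaled CPM with a prior count of 2, given with 95% intervals from the 2 counts that cover counting error only. With 1 library against 1 these differences have no replicate check and no test.

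The levels of the 46 genes in the 4 libraries were plotted by role.

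**Figure D1:**
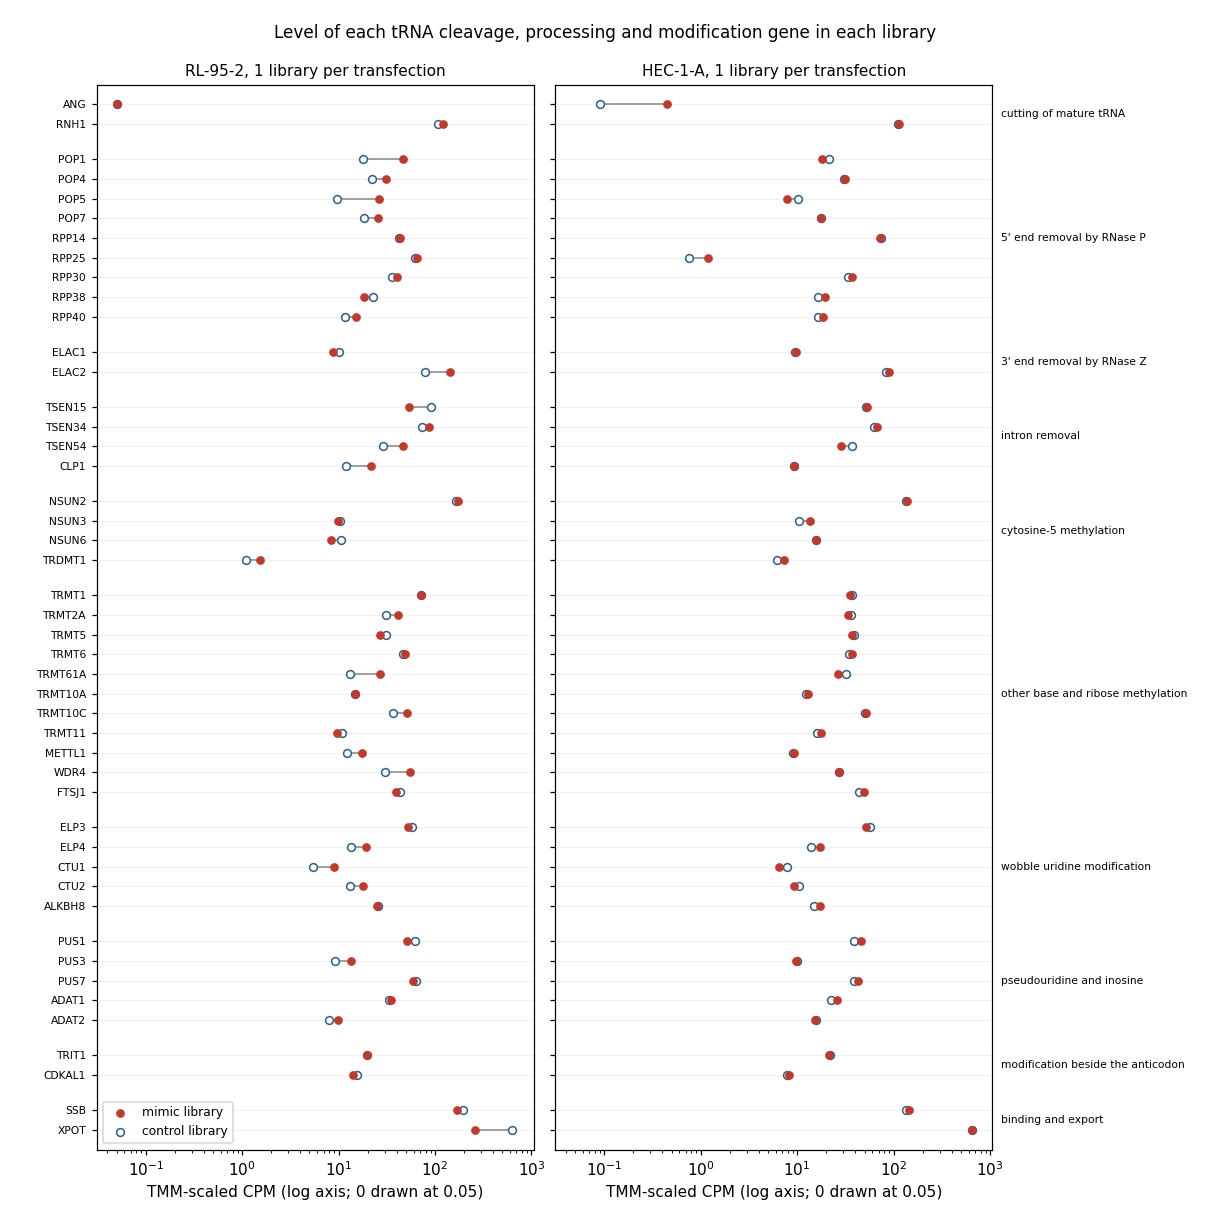
TMM-scaled CPM (log axis) of the 46 genes by role in RL-95-2 and HEC-1-A, with the mimic library as a filled and the control library as an open point. XPOT, POP1, POP5 and TRMT61A have the widest gaps among measured genes in RL-95-2, while in HEC-1-A the points of nearly all genes lie close together and ANG and RPP25 sit at the low end.

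XPOT had 262 CPM in the RL-95-2 mimic library and 631 CPM in the RL-95-2 control library, against 654 CPM with mimic and 657 CPM with control in HEC-1-A. The RL-95-2 mimic library was thus low and the other 3 lay close together. The log2 ratio of mimic over control was -1.27 in RL-95-2 (interval -1.30 to -1.24) and -0.01 in HEC-1-A (interval -0.03 to 0.02). Set between lines, RL-95-2 over HEC-1-A was -1.32 in the mimic libraries and -0.06 in the control libraries. XPOT lies on chromosome 12 at 64404350 to 64451127 (GRCh38, plus strand) and has a processed pseudogene, XPOTP1, to which reads could be assigned.

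POP5 had 26.6 CPM in the RL-95-2 mimic library and 9.71 CPM in its control, against 7.89 CPM in HEC-1-A with mimic and 10.1 CPM with control. POP1 had 46.3 CPM in the RL-95-2 mimic library and 17.8 CPM in its control, against 18.2 CPM in HEC-1-A with mimic and 21.4 CPM with control. For both RNase P genes the RL-95-2 mimic library was the highest of the 4, and the HEC-1-A mimic library stood below its own control. The log2 ratios of POP5 were 1.45 in RL-95-2 (interval 1.29 to 1.62) and -0.36 in HEC-1-A (interval -0.58 to -0.14). Those of POP1 were 1.38 in RL-95-2 (interval 1.26 to 1.5) and -0.24 in HEC-1-A (interval -0.38 to -0.09). POP1 is the largest protein of the enzyme and binds its RNA.

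TRMT61A had 26.8 CPM in the RL-95-2 mimic library and 13.0 CPM in its control, against 26.4 CPM in HEC-1-A with mimic and 32.3 CPM with control. Here the RL-95-2 control library was the low one, and the RL-95-2 mimic library lay at the level of the HEC-1-A mimic library. The log2 ratio was 1.04 in RL-95-2 (interval 0.89 to 1.19) and -0.29 in HEC-1-A (interval -0.41 to -0.17). RL-95-2 over HEC-1-A was 0.02 in the mimic libraries and -1.30 in the control libraries. TRMT61A passed the 2-fold mark narrowly: its RL-95-2 log2 ratio was 0.99 on log2(FPKM + 1) and 0.98 with GC and length trends removed.

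Promoter windows of 300 bases from RefSeq (GRCh38.p14), which lie mostly before a transcript start and end just after it, were matched by symbol for 37 of the 46 genes, giving 46 windows. Those of XPOT, POP5 and TRMT61A, 3 of the 4 genes that were at least 2-fold apart in RL-95-2, are shown 5′ to 3′ so that a gene lower with the mimic can be read beside those that were higher. Capitals mark the ETS core, CCGGAAG or its reverse complement CTTCCGG.
XPOT promoter window, chr12:64404142-64404441, plus strand: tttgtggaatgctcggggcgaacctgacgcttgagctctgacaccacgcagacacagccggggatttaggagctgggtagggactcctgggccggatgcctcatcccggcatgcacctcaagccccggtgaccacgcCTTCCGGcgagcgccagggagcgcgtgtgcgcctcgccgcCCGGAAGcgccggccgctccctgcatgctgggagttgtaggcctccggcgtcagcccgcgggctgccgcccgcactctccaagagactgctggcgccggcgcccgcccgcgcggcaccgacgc
POP5 promoter window, chr12:120581353-120581652, minus strand: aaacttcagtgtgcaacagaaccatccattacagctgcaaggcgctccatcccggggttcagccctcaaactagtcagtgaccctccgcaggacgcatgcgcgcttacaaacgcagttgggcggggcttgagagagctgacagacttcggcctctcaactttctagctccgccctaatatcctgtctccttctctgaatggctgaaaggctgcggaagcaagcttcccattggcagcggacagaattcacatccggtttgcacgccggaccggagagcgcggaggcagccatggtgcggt
TRMT61A promoter window, chr14:103528946-103529245, plus strand: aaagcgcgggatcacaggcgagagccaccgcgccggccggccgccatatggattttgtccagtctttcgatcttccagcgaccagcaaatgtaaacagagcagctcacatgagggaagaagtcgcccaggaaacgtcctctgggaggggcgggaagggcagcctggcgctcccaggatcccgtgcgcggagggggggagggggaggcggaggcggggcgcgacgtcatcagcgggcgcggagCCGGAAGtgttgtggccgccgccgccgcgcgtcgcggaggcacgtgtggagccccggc
The XPOT window held 2 ETS cores, that of TRMT61A 1 and that of POP5 none, and GC content was 71.7% in XPOT, 57.7% in POP5 and 69.3% in TRMT61A. Searched on both strands, the ETS core lay in 15 of the 46 windows (32.6%) and in 10.3% of the 35116 windows of all genes. The MYC E-box CACGTG lay in 6 of the 46 windows, among them that of TRMT61A, against 7.26% of all windows. TGATGNAA, the C/EBP-ATF composite element, lay in 1 of the 46 windows, that of CDKAL1, against 3.62% of all windows. By its letters the ETS core overlaps neither of the other motifs, while the E-box can share its end bases with the composite element. A match is a run of letters and shows no binding, and several windows can belong to 1 gene.

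Over all roles, 29 of the 45 measured genes (64.4%) had a ratio above 0 in RL-95-2, against 50.1% of all measured genes. That difference in shares was not tested. The median log2 ratio of the 45 was 0.09, with quartiles of -0.12 and 0.49, against a median of 0.0011 over the 13151 genes measured in that line. At least 2-fold higher with the mimic were 3 of the 45, against 4.71% of all measured genes, and at least 2-fold lower was 1, against 6.52%. At 1.5-fold, 8 were higher (POP5, POP1, TRMT61A, ELAC2, CLP1, WDR4, CTU1 and TSEN54), against 14.5% of all genes, and 2 were lower (XPOT and TSEN15), against 15.5%. The counts of higher genes are near the share of all genes, and those of lower genes lie under it. Scaling by library total moved the RL-95-2 median of all genes to 0.13 and that of the tRNA enzyme genes to 0.22.

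In HEC-1-A, 28 of the 44 measured genes (63.6%) had a ratio above 0, against 53.6% of all measured genes. Ratios near 0 changed sign between settings: RNH1, POP7 and WDR4 could fall below 0, and RPP14 and TRIT1 could rise above it. That count thus depends on the setting, and the difference in shares was not tested. The median of the 44 was 0.019, against 0.017 over the 12981 genes measured in that line. None was at least 2-fold higher, against 0.871% of all genes, or at least 2-fold lower, against 0.239%. None reached 1.5-fold either, where 3.44% of all genes were higher and 1.32% lower. The range ran between -0.37 for TSEN54 and 0.38 for NSUN3.

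Of the 44 genes measured in both lines, 15 had ratios above 0 in both, 3 had ratios below 0 in both (TRMT5, ELP3 and XPOT), and 26 had opposite signs. Of those 26, 13 were above 0 in RL-95-2 and below 0 in HEC-1-A, and 13 the other way round. Of the 11913 genes of all kinds measured in both lines, 2851 were above 0 in both, 2485 below 0 in both, 3102 above in RL-95-2 and below in HEC-1-A, and 3475 the other way round, so opposite signs were about as frequent among the tRNA enzyme genes as among all genes. For 11 of the tRNA enzyme genes with opposite signs both intervals lay clear of 0. That count was not taken over all genes, so it has no share to be set against. These signs are those of the TMM-scaled ratios, and some ratios near 0 changed sign in other settings.

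**Figure D2:**
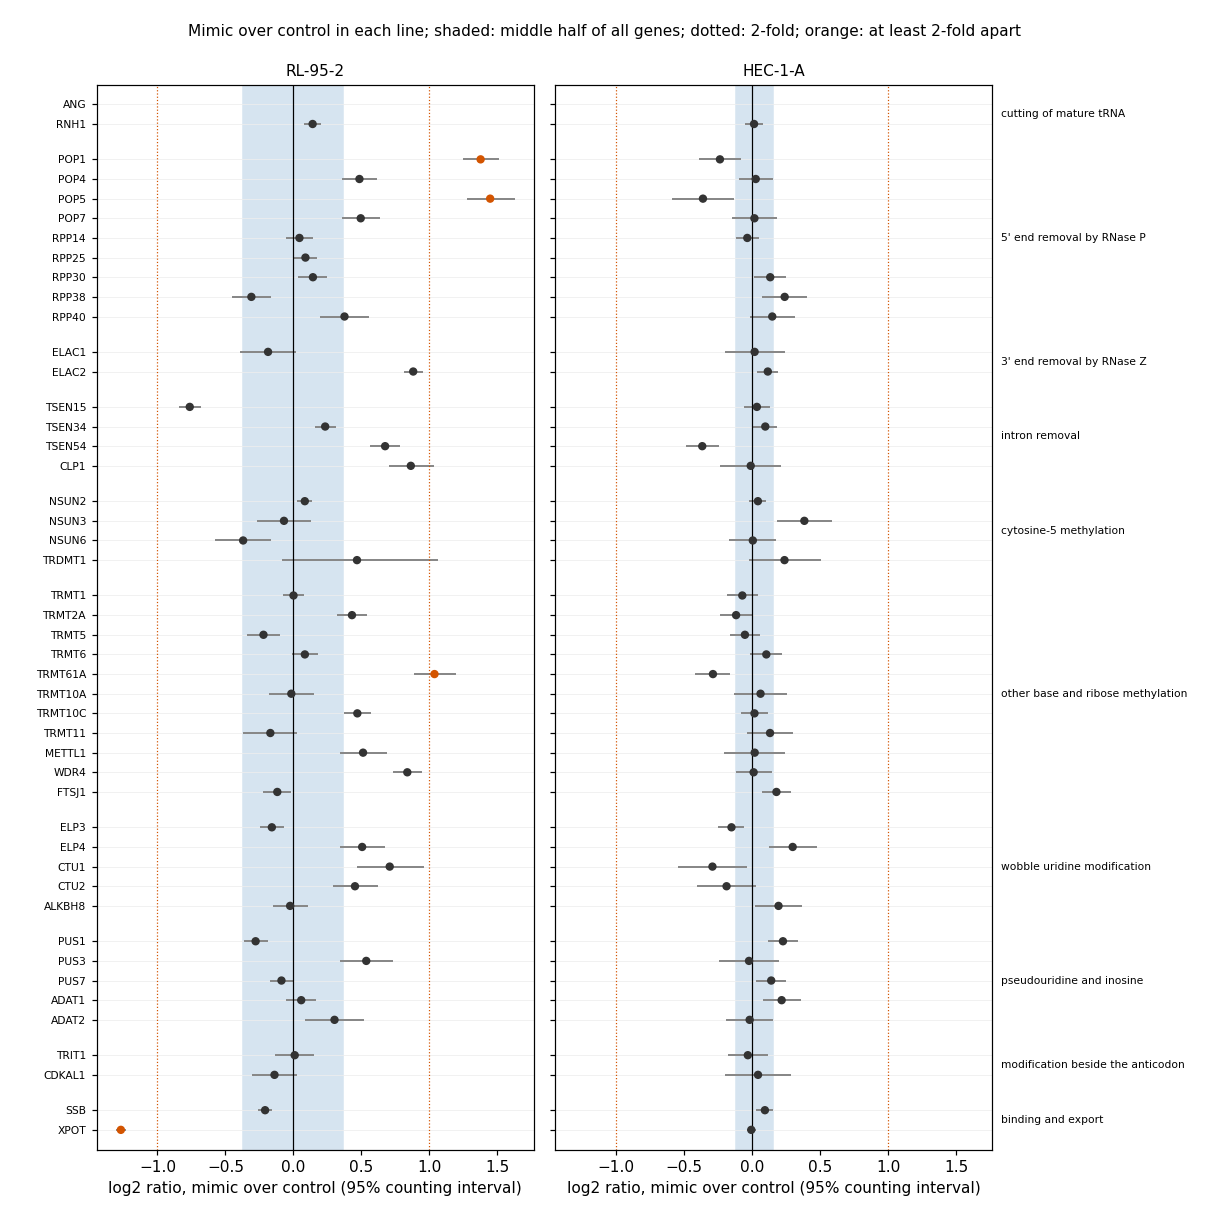
Log2 ratio of mimic over control in RL-95-2 and HEC-1-A for each measured gene by role, with 95% counting intervals; the shaded band spans the quartiles of all genes and the dotted lines mark 2-fold. In RL-95-2, POP1, POP5 and TRMT61A lie beyond the upper and XPOT beyond the lower 2-fold line, while in HEC-1-A every gene lies between -0.37 and 0.38.

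The edgeR quasi-likelihood test over both lines, with the line as a block, called 0 of the 45 genes tested at an adjusted p under 0.05, against 0% of all 15957 genes. None reached an unadjusted p under 0.05, where 167 of all genes did. The lowest p was that of ELAC2 (edgeR adjusted p = 0.9999), which was higher with the mimic in both lines. DESeq2 and limma-voom called none of the 45 either, with 0 under an unadjusted p of 0.05, and over all genes they called 2 and 0. The test had 1 residual degree of freedom, so a response has to be alike in both lines, beside its size, to pass, and its 0 calls do not show that a gene did not change.

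Among the genes for cutting of mature tRNA, ANG, which encodes angiogenin, had 0 counts in both RL-95-2 libraries, and in HEC-1-A 20 counts with mimic and 3 counts with control. It was thus at or near 0 everywhere, at most 0.447 CPM. A count of 0 allows up to 3 counts, or 0.0609 CPM in the RL-95-2 mimic and 0.0769 CPM in the RL-95-2 control library. The HEC-1-A log2 ratio was 1.84 (interval 0.55 to 4.70) on those few counts. ANG shares 47.2% of its exonic bases with RNASE4 on the same strand, so its counts are uncertain. RNH1, the inhibitor that binds angiogenin, had 120 CPM in the RL-95-2 mimic library and 109 CPM in its control, against 113 CPM in HEC-1-A with mimic and 112 CPM with control. RNH1 was level across the libraries, with log2 ratios of 0.14 in RL-95-2 (interval 0.08 to 0.20) and 0.01 in HEC-1-A (interval -0.05 to 0.08).

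Other ribonucleases that can cut tRNA were listed with it. RNASE7, a secreted antimicrobial ribonuclease, had 16.8 CPM in the RL-95-2 mimic library and 63.7 CPM in its control (log2 ratio -1.92), with no count in HEC-1-A. SLFN13, a tRNA-cutting member of the Schlafen family, had 0 counts in both RL-95-2 libraries, against 69.7 CPM in the HEC-1-A mimic and 80.0 CPM in the HEC-1-A control library. SLFN11 had 0 counts in RL-95-2, and in HEC-1-A 1.97 CPM with mimic and 2.84 CPM with control (log2 ratio -0.52, interval -0.97 to -0.09). SLFN12 was higher with the mimic in both lines, at 0.78 in RL-95-2 (interval 0.52 to 1.05) and 0.77 in HEC-1-A (interval 0.40 to 1.16). Its levels were low, 7.65 CPM with mimic and 4.43 CPM with control in RL-95-2, against 4.40 and 2.57 CPM in HEC-1-A.

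RNase P, most of whose proteins also belong to the related RNase MRP, was covered by 9 subunit genes. In RL-95-2, 8 of the 9 had a ratio above 0, with a median of 0.38, and RPP38 alone lay below. Of all measured genes 50.1% lay above 0 there. POP4 and POP7 stood at 0.49 each, RPP40 at 0.38, RPP30 at 0.14, RPP25 at 0.09 and RPP14 at 0.04. RPP38, whose protein binds kink-turn RNA, had 18.6 CPM in the RL-95-2 mimic library and 23.0 CPM in its control, against 19.3 CPM in HEC-1-A with mimic and 16.3 CPM with control. Its log2 ratios were -0.31 in RL-95-2 (interval -0.44 to -0.18) and 0.24 in HEC-1-A (interval 0.08 to 0.40), so it ran against POP1 and POP5 in both lines. In HEC-1-A, 5 of 8 measured subunits were above 0 (62.5%, against 53.6% of all measured genes), with a median of 0.02. RPP38 shares 19.6% of its exonic bases with NMT2 on the other strand, and RPP40 has the processed pseudogenes RPP40P1 and RPP40P2.

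For RNase Z, ELAC2 is the long form, found in the nucleus and in mitochondria, and ELAC1 the short form. ELAC2 had 144 CPM in the RL-95-2 mimic library and 78.0 CPM in its control, against 90.0 CPM in HEC-1-A with mimic and 83.0 CPM with control. The RL-95-2 mimic library was the highest, and the other 3 lay between 78.0 and 90.0 CPM. Its log2 ratios were 0.88 in RL-95-2 (interval 0.82 to 0.94) and 0.12 in HEC-1-A (interval 0.05 to 0.19), and with scaling by library total the RL-95-2 ratio came to 1.01. ELAC1 had 8.86 CPM in the RL-95-2 mimic library and 10.1 CPM in its control, against 9.69 CPM in HEC-1-A with mimic and 9.57 CPM with control. Its ratios were -0.19 in RL-95-2 and 0.02 in HEC-1-A, with both intervals across 0. In deposited FPKM, which is per transcript length, ELAC2 stood at 9.96 times ELAC1 in the RL-95-2 mimic and 5.11 times in the RL-95-2 control library, against 6.14 times in the HEC-1-A mimic and 5.76 times in the HEC-1-A control library.

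Intron removal was covered by 3 subunits of the TSEN endonuclease and by CLP1, an RNA kinase bound to it. TSEN15, a structural subunit, had 54.2 CPM in the RL-95-2 mimic library and 91.9 CPM in its control, against 53.2 CPM in HEC-1-A with mimic and 51.9 CPM with control. The RL-95-2 control library stood above the other 3, and the log2 ratio was -0.76 in RL-95-2 (interval -0.84 to -0.69) and 0.04 in HEC-1-A. TSEN15 has the processed pseudogenes TSEN15P1, TSEN15P2 and TSEN15P3.

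CLP1 ran the other way, with 21.8 CPM in the RL-95-2 mimic library and 12.0 CPM in its control, against 9.20 CPM in HEC-1-A with mimic and 9.27 CPM with control. Its log2 ratios were 0.86 in RL-95-2 (interval 0.71 to 1.03) and -0.01 in HEC-1-A. CLP1 shares 9.6% of its exonic bases with YPEL4 on the other strand. TSEN54, a further structural subunit, had 46.3 CPM in the RL-95-2 mimic library and 28.98 CPM in its control, against 28.8 CPM in HEC-1-A with mimic and 37.2 CPM with control. It was higher with the mimic in RL-95-2 (log2 ratio 0.67) and the lowest of all measured tRNA enzyme genes in HEC-1-A (-0.37, interval -0.48 to -0.25). TSEN34, a catalytic subunit, had log2 ratios of 0.23 in RL-95-2 and 0.10 in HEC-1-A, so subunits of 1 complex had ratios of both signs in RL-95-2.

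Among the cytosine-5 methyltransferases, NSUN2, which acts on many tRNAs, had 175 CPM in the RL-95-2 mimic library and 165 CPM in its control, against 139 CPM in HEC-1-A with mimic and 135 CPM with control. Its log2 ratios were 0.08 in RL-95-2 (interval 0.04 to 0.13) and 0.04 in HEC-1-A (interval -0.01 to 0.10). NSUN6, which acts on threonine and cysteine tRNAs, had 8.30 CPM in the RL-95-2 mimic library and 10.7 CPM in its control, against 15.7 CPM in each HEC-1-A library. With -0.37 in RL-95-2 (interval -0.57 to -0.17) it was the lowest of these enzymes there, and in HEC-1-A it stood at 0.01.

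NSUN3, which modifies the mitochondrial methionine tRNA, had 9.84 CPM in the RL-95-2 mimic library and 10.3 CPM in its control, against 13.6 CPM in HEC-1-A with mimic and 10.4 CPM with control. It had the highest HEC-1-A ratio of all 44 genes, 0.38 (interval 0.19 to 0.58), and -0.07 in RL-95-2. TRDMT1, also called DNMT2 and known for aspartate tRNA, had 1.54 CPM in the RL-95-2 mimic library and 1.10 CPM in its control, against 7.24 CPM in HEC-1-A with mimic and 6.13 CPM with control. Its ratios were 0.47 in RL-95-2 (interval -0.07 to 1.06) and 0.24 in HEC-1-A (interval -0.02 to 0.50), so at this depth no difference between transfections was detectable. In FPKM, NSUN2 stood at 110 times TRDMT1 in the RL-95-2 mimic and 161 times in the RL-95-2 control library, against 19.6 times in the HEC-1-A mimic and 21.8 times in the HEC-1-A control library.

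The other base and ribose methyltransferases came to 11 genes. In RL-95-2, 7 of the 11 had a ratio above 0 (63.6%, against 50.1% of all measured genes), with a median of 0.08. In HEC-1-A, 7 of the 11 did (63.6%, against 53.6% of all measured genes), with a median of 0.02. TRMT61A was the highest in RL-95-2 and TRMT5, which methylates guanosine beside the anticodon, the lowest. TRMT5 had 26.96 CPM in the RL-95-2 mimic library and 31.4 CPM in its control, against 37.3 CPM in HEC-1-A with mimic and 38.7 CPM with control (log2 ratios -0.22 and -0.05).

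WDR4 and METTL1 form the enzyme that makes 7-methylguanosine. WDR4, the non-catalytic partner, had 54.6 CPM in the RL-95-2 mimic library and 30.5 CPM in its control, against 27.5 CPM in HEC-1-A with mimic and 27.3 CPM with control. Its log2 ratio was 0.84 in RL-95-2 (interval 0.74 to 0.94) and 0.01 in HEC-1-A. METTL1, the catalytic subunit, had 0.51 in RL-95-2 (interval 0.35 to 0.68) and 0.02 in HEC-1-A, so both subunits lay above 0 in RL-95-2 and near 0 in HEC-1-A. METTL1 shares 19.3% of its exonic bases with EEF1AKMT3 on the other strand and 4.08% with CYP27B1 on the same strand.

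TRMT6, the non-catalytic partner of TRMT61A, stayed near 0, with log2 ratios of 0.08 in RL-95-2 and 0.10 in HEC-1-A. In FPKM, TRMT6 stood at 2.55 times TRMT61A in the RL-95-2 mimic and 4.96 times in the RL-95-2 control library, against 1.96 times in the HEC-1-A mimic and 1.49 times in the HEC-1-A control library. TRMT10C, a protein of mitochondrial RNase P, had ratios of 0.47 in RL-95-2 and 0.02 in HEC-1-A. TRMT2A, which makes 5-methyluridine, had 0.43 in RL-95-2 and -0.12 in HEC-1-A, and shares 9.92% of its exonic bases with RANBP1 on the other strand. The guanosine methyltransferases TRMT1, TRMT10A and TRMT11 lay between -0.17 and 0.00 in RL-95-2, and between -0.07 and 0.13 in HEC-1-A. FTSJ1, which methylates ribose in the anticodon loop, had -0.12 in RL-95-2 (interval -0.21 to -0.02) and 0.18 in HEC-1-A (interval 0.08 to 0.28). Its RL-95-2 ratio changed sign between settings, from -0.15 to 0.02.

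Of the 5 wobble uridine genes, 3 had a ratio above 0 in RL-95-2 (60%, against 50.1% of all measured genes), with a median of 0.45. In HEC-1-A, 2 of the 5 did (40%, against 53.6% of all measured genes), with a median of -0.15. With so few genes these shares were not tested. CTU1, which with CTU2 puts sulphur on the wobble uridine, had 8.95 CPM in the RL-95-2 mimic library and 5.46 CPM in its control, against 6.48 CPM in HEC-1-A with mimic and 7.94 CPM with control. Its log2 ratios were 0.71 in RL-95-2 (interval 0.47 to 0.96) and -0.29 in HEC-1-A (interval -0.54 to -0.05). CTU2 had 0.45 in RL-95-2 (interval 0.29 to 0.61) and -0.19 in HEC-1-A (interval -0.40 to 0.02), so the pair had the same signs in each line.

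ELP3, the catalytic subunit of Elongator, had 52.2 CPM in the RL-95-2 mimic library and 58.3 CPM in its control, against 51.8 CPM in HEC-1-A with mimic and 57.6 CPM with control. On TMM-scaled CPM it was lower with the mimic in both lines, with log2 ratios of -0.16 in RL-95-2 (interval -0.24 to -0.08) and -0.15 in HEC-1-A (interval -0.24 to -0.06). In RL-95-2 that sign depended on the setting, as the ratio ran between -0.18 and 0.04. Deposited FPKM of ELP3 there was 15.5 with mimic and 15.0 with control. ELP4, of the accessory subcomplex, had 19.3 CPM in the RL-95-2 mimic library and 13.6 CPM in its control, against 17.2 CPM in HEC-1-A with mimic and 14.0 CPM with control. It was higher with the mimic in both lines, at 0.51 in RL-95-2 (interval 0.35 to 0.66) and 0.30 in HEC-1-A (interval 0.13 to 0.47). ELP4 shares 19.2% of its exonic bases with PAX6 on the other strand. ALKBH8, which methylates the side chain of the wobble uridine, had ratios of -0.02 in RL-95-2 and 0.19 in HEC-1-A.

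**Figure D3:**
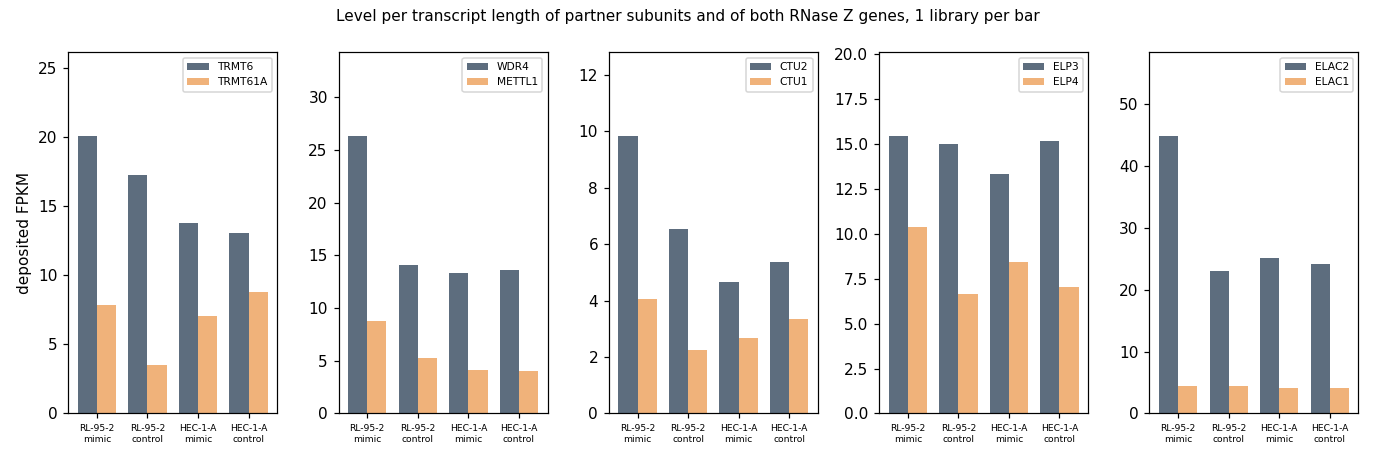
Deposited FPKM, a level per transcript length, of partner subunits and of both RNase Z genes in each of the 4 libraries, 1 library per bar. TRMT61A and ELAC2 differ between the RL-95-2 mimic and control libraries while their counterparts TRMT6 and ELAC1 stay close, whereas WDR4 and METTL1, and CTU2 and CTU1, are both higher with the mimic in RL-95-2.

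Of the pseudouridine and inosine genes, PUS3 had the highest RL-95-2 ratio and PUS1 the lowest, and both encode pseudouridine synthases. PUS3 had 13.4 CPM in the RL-95-2 mimic library and 9.25 CPM in its control, against 9.72 CPM in HEC-1-A with mimic and 9.87 CPM with control (log2 ratios 0.54 and -0.02). PUS1 had 51.4 CPM in the RL-95-2 mimic library and 62.3 CPM in its control, against 45.5 CPM in HEC-1-A with mimic and 38.8 CPM with control. PUS1 was lower with the mimic in RL-95-2 (-0.28, interval -0.36 to -0.20) and higher in HEC-1-A (0.23, interval 0.13 to 0.33). PUS7, a further synthase, had the same signs at smaller size, -0.09 in RL-95-2 and 0.14 in HEC-1-A. The RL-95-2 ratio of PUS7 changed sign between settings, from -0.11 to 0.06.

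ADAT1 and ADAT2 encode adenosine deaminases, of which ADAT1 acts beside the anticodon of alanine tRNA and ADAT2, with ADAT3, on the wobble base. ADAT1 had log2 ratios of 0.06 in RL-95-2 and 0.22 in HEC-1-A, and ADAT2 0.30 in RL-95-2 and -0.02 in HEC-1-A. In FPKM, ADAT1 stood at 19.97 times ADAT2 in the RL-95-2 mimic and 23.8 times in the RL-95-2 control library, against 9.16 times in the HEC-1-A mimic and 8.22 times in the HEC-1-A control library.

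Beside the anticodon act TRIT1, which adds an isopentenyl group to adenosine, and CDKAL1, which adds a methylthio group. TRIT1 had 19.9 CPM in the RL-95-2 mimic library and 19.7 CPM in its control, against 21.6 CPM in HEC-1-A with mimic and 22.1 CPM with control. CDKAL1 had 14.3 CPM in the RL-95-2 mimic library and 15.7 CPM in its control, against 8.15 CPM in HEC-1-A with mimic and 7.91 CPM with control. All 4 intervals of these genes' mimic ratios reached across 0.

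SSB, the La protein that binds the 3′ end of new RNA polymerase III transcripts, had 169 CPM in the RL-95-2 mimic library and 195 CPM in its control, against 144 CPM in HEC-1-A with mimic and 135 CPM with control. Its log2 ratios were small and of opposite sign, -0.21 in RL-95-2 (interval -0.25 to -0.16) and 0.09 in HEC-1-A (interval 0.04 to 0.15). SSB shares 11.2% of its exonic bases with METTL5 on the other strand, whose log2 ratios were -0.59 in RL-95-2 and 0.23 in HEC-1-A. Any part of METTL5 reads in the SSB counts was not tested. SSB and XPOT, the genes of tRNA binding and export, were both below 0 in RL-95-2.

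Per transcript length, SSB was the highest of the 46 genes in both RL-95-2 libraries, at 93.4 FPKM with mimic and 98.2 FPKM with control. XPOT was the highest in both HEC-1-A libraries, at 88.7 FPKM with mimic and 91.4 FPKM with control. In RL-95-2, XPOT ranked 6 with the mimic at 39.4 FPKM and 2 with the control at 86.3 FPKM. RNH1, NSUN2, TSEN34 and ELAC2 also stood high, at 23.0 FPKM or more in every library. The median of the 46 was 12.3 FPKM in the RL-95-2 mimic library and 9.19 FPKM in its control, against 9.75 FPKM with mimic and 10.1 FPKM with control in HEC-1-A. In each library 2 genes lay under 1 FPKM: ANG and TRDMT1 in RL-95-2, and ANG and RPP25 in HEC-1-A.

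Between the lines, 2 of the 45 genes tested were higher in RL-95-2, RPP25 and TRMT1, against 18.3% of all 15957 genes, and 2 were lower, TRDMT1 and RPP14, against 16.7%. Both shares lie under those of all genes. The test was edgeR's quasi-likelihood F test on the line term of the same fit, with 2 libraries per line and Benjamini-Hochberg adjustment over all genes. The median log2 fold change of RL-95-2 over HEC-1-A was 0.19 among the 45 and 0.0086 over all genes.

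RPP25, whose protein pairs with that of POP7 on the RNase P RNA, had 65.4 CPM in the RL-95-2 mimic and 61.5 CPM in the RL-95-2 control library, against 1.18 CPM in the HEC-1-A mimic and 0.755 CPM in the HEC-1-A control library. It was 65.8-fold higher in RL-95-2 (log2 fold change 6.04, SE 0.32, edgeR adjusted p = 8.09e-05), and higher in both of its libraries. RPP25 lies on chromosome 15 at 74954416 to 74957464 (GRCh38, minus strand) and shares 8.07% of its exonic bases with SCAMP5 on the other strand. Its paralog RPP25L had 13.0 CPM in the RL-95-2 mimic and 9.04 CPM in the RL-95-2 control library, against 11.5 CPM in the HEC-1-A mimic and 13.7 CPM in the HEC-1-A control library. RPP25L thus did not share the gap of RPP25.

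TRDMT1 was 5.09-fold lower in RL-95-2 than in HEC-1-A (log2 fold change -2.35, SE 0.44, edgeR adjusted p = 0.00877). TRMT1, which dimethylates guanosine, had 71.0 CPM in the RL-95-2 mimic and 70.9 CPM in the RL-95-2 control library, against 35.7 CPM in the HEC-1-A mimic and 37.5 CPM in the HEC-1-A control library (1.94-fold higher, log2 fold change 0.96, SE 0.23, edgeR adjusted p = 0.0191). RPP14 had 43.3 CPM in the RL-95-2 mimic and 42.0 CPM in the RL-95-2 control library, against 72.6 CPM in the HEC-1-A mimic and 74.3 CPM in the HEC-1-A control library. RPP14 was 1.72-fold lower (log2 fold change -0.78, SE 0.22, edgeR adjusted p = 0.0366), a call lost with limma on log2(FPKM + 1) and log2(FPKM + 0.1), with adjusted p of 0.187 and 0.169. RPP14 shares 22.5% of its exonic bases with HTD2 on the same strand.

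CDKAL1, ADAT2, TRMT11, NSUN6, CLP1 and POP5 did not pass, although CDKAL1, POP5, CLP1 and ADAT2 had larger line differences than RPP14, which did. CDKAL1 had a log2 fold change of 0.90 (SE 0.31, edgeR adjusted p = 0.0659) and passed with limma on log2(FPKM + 1), at an adjusted p of 0.0418. ADAT2 had 9.90 CPM in the RL-95-2 mimic and 8.02 CPM in the RL-95-2 control library, against 15.5 CPM in the HEC-1-A mimic and 15.7 CPM in the HEC-1-A control library (log2 fold change -0.81, edgeR adjusted p = 0.0879). TRMT11 had 9.68 CPM in the RL-95-2 mimic and 10.9 CPM in the RL-95-2 control library, against 17.7 CPM in the HEC-1-A mimic and 16.1 CPM in the HEC-1-A control library (log2 fold change -0.72, edgeR adjusted p = 0.109). NSUN6 had a line log2 fold change of -0.73 (edgeR adjusted p = 0.113), CLP1 0.81 (edgeR adjusted p = 0.118) and POP5 0.85 (edgeR adjusted p = 0.217).

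The line difference of some genes was not the same with mimic and with control. POP5 stood at a log2 ratio of RL-95-2 over HEC-1-A of 1.75 in the mimic libraries and -0.06 in the control libraries, and POP1 at 1.35 and -0.26. For ELAC2 the values were 0.68 with mimic and -0.09 with control, for WDR4 0.99 and 0.16, and for CLP1 1.24 and 0.37. TSEN54 was at 0.68 with mimic and -0.36 with control, and TSEN15 at 0.03 and 0.82. POP5, POP1, ELAC2, WDR4, CLP1, TSEN54 and XPOT were therefore closer between the lines in the control libraries than in the mimic libraries, and TSEN15 and TRMT61A the reverse. These contrasts were not tested.

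**Figure D4:**
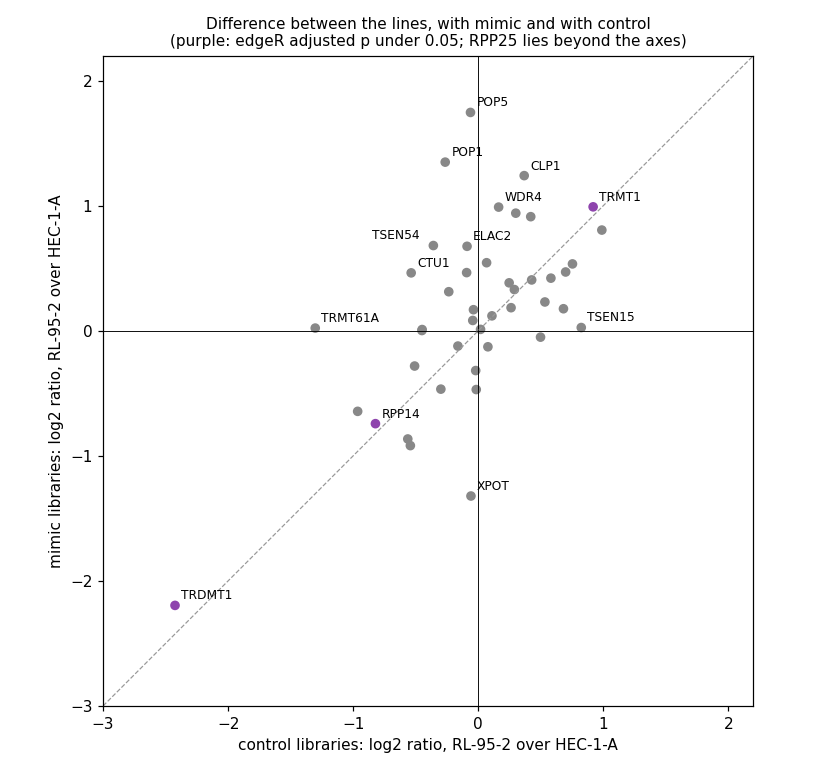
Log2 ratio of RL-95-2 over HEC-1-A in the control libraries (x axis) and in the mimic libraries (y axis) for each tRNA enzyme gene with counts in both lines, with RPP25 beyond the axes. TRDMT1, RPP14 and TRMT1 lie near the diagonal, while POP5 and POP1 lie above it and XPOT below it, close to 0 on the x axis.

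A wider list of tRNA enzymes that are not among the 46 was set beside them. Of its 69 genes in the table, 67 were measured in RL-95-2 and 68 in HEC-1-A. In RL-95-2, 48 of the 67 had a ratio above 0 (71.6%, against 50.1% of all measured genes), with a median of 0.16. In HEC-1-A, 28 of the 68 did (41.2%, against 53.6% of all measured genes), with a median of -0.03. At least 2-fold higher with the mimic in RL-95-2 were 3 of the 67, near the 4.71% of all measured genes. None was at least 2-fold lower, against 6.52% of all measured genes. LAGE3, a subunit of the KEOPS complex, had 22.7 CPM in the RL-95-2 mimic library and 9.02 CPM in its control (log2 ratio 1.33, interval 1.16 to 1.51). TRUB2, a mitochondrial pseudouridine synthase, had 58.6 CPM in the RL-95-2 mimic library and 27.98 CPM in its control (1.07). ADAT3, the partner of ADAT2, had 12.4 CPM in the RL-95-2 mimic library and 5.92 CPM in its control (1.06).

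The lowest of that list in RL-95-2 was DUS4L, a dihydrouridine synthase homolog, at -0.85 (interval -1.01 to -0.69). In HEC-1-A the list ran between -0.43 for RPUSD4 and 0.70 for PUS10. None was 2-fold apart there, against 0.871% of all genes higher and 0.239% lower. Between the lines 7 of the 68 tested were higher and 7 lower in RL-95-2, both under the 18.3% and 16.7% of all genes. RNA polymerase III, which transcribes tRNA genes, and its regulators had 16 of 25 ratios (64%) above 0 in RL-95-2, against 50.1% of all measured genes. The median of the 25 was 0.20, and 1 of them, GTF3C6, was at least 2-fold higher, against 4.71% of all measured genes. In HEC-1-A 14 of the 25 lay above 0 (56%, against 53.6% of all measured genes), with a median of 0.02 and none 2-fold apart.

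Another list, chosen with earlier results of these data known, differed between the same RL-95-2 libraries. Of 15 genes of the integrated stress response, 14 were at least 2-fold lower with the mimic in RL-95-2, against 6.52% of all measured genes. The median log2 ratio of the 15 was -2.12. Their summed level was 1303 CPM in the RL-95-2 mimic and 4918 CPM in the RL-95-2 control library. In HEC-1-A the same list summed to 4660 CPM in the mimic and 4076 CPM in the control library, with PHGDH at 0 in both and none of 14 measured genes 2-fold apart. Its part in the RL-95-2 ratios of XPOT, POP1, POP5 and TRMT61A was not tested.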

How the data were processed

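Poly(A) RNA of 4 libraries was used, 1 per cell line and transfection, grouped by the labels. The authors deposited a table of raw counts and a table of FPKM values, with a row per gene in each. The tools named are CASAVA and HISAT2 and the genome build GRCh38 (hg38), per the submitters' processing notes. How reads were counted, with which annotation and on which strand, is not given in the sources used here. Without a stated strand setting, reads of overlapping genes on either strand cannot be told apart. Totals ran between 33575882 and 46220053 counts.

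Counts were tested in R 4.3.3 with edgeR 4.0.16 (TMM, filterByExpr by transfection, a quasi-likelihood F test, Benjamini-Hochberg adjustment at an FDR of 0.05) in 1 fit with line and transfection terms. The mimic and control libraries of a line are paired by the cell line in their labels, so line is the block, and 1 residual degree of freedom is left. Within a line, log2 ratios of TMM-scaled CPM (prior count of 2) were given with exact 95% intervals from the 2 counts, and genes were called apart from 2-fold upward where their mean reached 1 CPM. SEs were taken from the fold change and its F value. Gene positions, overlaps, GC content and length came from GENCODE (GRCh38), matched by symbol for 18931 features and all 46 genes, and promoter windows from RefSeq (GRCh38.p14).

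Every one of the 46 genes is named. Values in all libraries are given for genes at least 2-fold apart, the 5 highest and lowest line fold changes and HEC-1-A ratios, the highest and lowest RL-95-2 ratio per role, and ANG, RNH1, NSUN2, TRDMT1 and ELAC2. The genes and lists were chosen with earlier results of these data known. Alternatives were DESeq2 1.42.0, limma 3.58.1 (voom, and log2 FPKM values), RLE size factors, scaling by library total, other filters and prior counts, a fit with no replicate block, and, chosen after seeing the data, removal of GC and length trends. The edgeR step was tested on simulated counts in which a mimic change was alike in both lines, or a line difference alike in both transfections. That check does not cover mimic changes that differ between the lines. The sequence of tRF-20-S998LO9D is not used here. A gene of the list of other ribonucleases is not reported here.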

Additional observations from a re-analysis of the deposited data

Results flagged for a closer look

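For 11 of the tRNA enzyme genes the mimic ratio had opposite signs in the lines, with both counting intervals clear of 0. The same count was not taken over all genes, so it cannot be called particular to the tRNA enzyme genes. Each line had 1 library per transfection, so the difference between the lines was not tested. The difference, RL-95-2 ratio minus HEC-1-A ratio in log2, was 1.81 for POP5, 1.61 for POP1, 1.32 for TRMT61A, 1.04 for TSEN54, 0.999 for CTU1 and 0.55 for TRMT2A, all 6 higher with the mimic in RL-95-2 and lower in HEC-1-A. It was -0.55 for RPP38, -0.51 for PUS1, -0.30 for SSB, -0.30 for FTSJ1 and -0.23 for PUS7, all 5 lower with the mimic in RL-95-2 and higher in HEC-1-A on TMM-scaled CPM. Over all settings the RL-95-2 ratio ran between -0.15 and 0.02 for FTSJ1 and between -0.11 and 0.06 for PUS7. The opposite signs of FTSJ1 and PUS7 thus depend on the setting. RNase P subunits stood on both sides, POP1 and POP5 among the higher genes and RPP38 among the lower.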

How the results depend on the processing

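Over both lines, genes called were 0 with edgeR, 2 with DESeq2, 2 on log2(FPKM + 1) and 3 on log2(FPKM + 0.1), and none of the tRNA enzyme genes was called by any. With no replicate block the count was 0 as well, so the pairing by line changed no call. Between lines, 5594 genes were called, against 3344 with at least 1 CPM in all 4 libraries; tRNA enzyme genes higher in RL-95-2 were 2, against 1 with that filter and 5 with line alone, and lower 2, against 1 on log2(FPKM + 1) and 4 with line alone. In RL-95-2, 1476 genes were 2-fold apart, against 727 on log2(FPKM + 1), 941 at a mean of 5 CPM, 3511 with no minimum and 3943 at 1.5-fold, where tRNA enzyme genes came to 8 higher and 2 lower in place of 3 and 1. Their RL-95-2 median of 0.09 came to 0.22 with library totals and likewise to 0.22 on log2(FPKM + 0.1). In HEC-1-A, 144 genes were 2-fold apart, against 26, 29, 1868 and 617 under the same settings, and ANG became the 1 tRNA enzyme gene apart with no minimum. Line fold changes near 0 changed sign for RNH1 (-0.00058 with RLE, -0.00055 with DESeq2, -0.0039 at 1 CPM), ELP3 (-0.0052 with RLE and with DESeq2, -0.0085 at 1 CPM), ELAC1 (0.032 with library totals, 0.10 on log2(FPKM + 1), 0.12 on log2(FPKM + 0.1)) and CTU1 (0.024 with library totals, 0.020 with voom and on log2(FPKM + 1), 0.014 on log2(FPKM + 0.1), 0.00097 with line alone). The median of all genes in RL-95-2 was 0.13 with library totals. The causes of these shifts were not tested, except that a filter or a fold limit changes how many genes can count. Over all settings the RL-95-2 ratio ran between -1.29 and -1.11 for XPOT, 1.34 and 1.59 for POP5, 1.28 and 1.505 for POP1 and 0.98 and 1.17 for TRMT61A. Some small mimic ratios changed sign, among them ELP3, FTSJ1 and PUS7 in RL-95-2 and RNH1, POP7, WDR4, RPP14 and TRIT1 in HEC-1-A. Leaving out a line leaves the ratio within the other, with no test. Low counts limit ANG, TRDMT1 and, in HEC-1-A, RPP25.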
